A study of Drosophila melanogaster with 9 samples.

Results

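The gene starts described here are those of Atg8a, cib, N, T48 and ATPsynC, which hold 5 of the 10 strongest CP190 peaks in embryos of the Pita wt line. They were chosen by those peaks, which rank 1, 4, 10, 8 and 9 of 6586 when the peaks are ordered by the fold enrichment that the authors deposited. They are not all the gene starts at the top of that list. The peaks ranked 3 and 5 lay 178 bp and 108 bp from the start of another protein-coding gene and were not part of the choice. Every peak of the 4 lists whose summit lies within 2000 bp of these 5 CP190 summits was taken. This gave 26 of 29281 peaks, with 7 FLAG and 7 CP190 peaks in the Pita wt line and 6 FLAG and 6 CP190 peaks in the Pita ΔCP1+2 line. The position and strength of the CP190 peaks in Pita wt are therefore a description of how the genes were picked and not a finding.

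Pita is a zinc-finger protein that binds DNA and belongs to the architectural, or insulator, proteins of Drosophila. CP190 is a partner of such DNA-binding proteins, which bring it to chromatin through its BTB domain among other contacts. It is found at many boundaries and at the promoters of widely expressed genes. In the Pita ΔCP1+2 protein both stretches that bind the BTB domain of CP190 are missing, so that the comparison asks where CP190 and Pita are found on chromatin when this contact is removed.

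The study has 9 ChIP-seq samples from whole Drosophila melanogaster embryos: FLAG and CP190 precipitations in 2 replicates each from both lines, and 1 preimmune sample from Pita wt that served as the control for all. Both lines carry a Pita transgene with a 3xFLAG tag, driven by the ubiquitous Ubi-p63E promoter and inserted at the same 86Fb landing site. The study describes crosses of these transgenes into strong hypomorphic pita mutations, while the labels name Oregon-R as the strain and do not give the state of the endogenous pita gene. The transgenes differ in the deletion. FLAG therefore reports the transgenic protein at a level set by a foreign promoter, in all cell types of the embryo together. The labels give collections of 12 h at 25 °C, whereas the methods give a later window of embryonic age. The authors merged the replicates of each antibody and line into 1 peak list, so no value could be assigned to a replicate and no test was run. Depth per sample was not analysed here.

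All 5 CP190 summits of Pita wt lie in intergenic sequence just upstream of the gene they are named for. In dm6 coordinates, Atg8a (FBgn0052672, X:10764878-10768338, minus strand) starts 76 bp from the summit at X:10768414. The start of cib (FBgn0026084, X:4106113-4110981, plus strand) is 158 bp from the summit at X:4105955. N (FBgn0004647, X:3134870-3172221, plus strand) starts 86 bp from the summit at X:3134784. T48 (FBgn0004359, 3R:26881734-26910997, plus strand) starts 194 bp from the summit at 3R:26881540, and ATPsynC (FBgn0039830, 3R:31216145-31219630, minus strand) starts 88 bp from the summit at 3R:31219718. The strongest peak of each of the other lists at these starts also has an intergenic summit.

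The genes have unrelated products. Atg8a encodes a ubiquitin-like protein that is coupled to the lipid of autophagosome membranes, and cib encodes Ciboulot, a small protein that binds actin monomers. N encodes the Notch receptor. T48 encodes a membrane protein that gathers RhoGEF2 at the apical side of mesoderm cells when the ventral furrow forms. ATPsynC encodes the c subunit, which forms the rotating ring of the mitochondrial ATP synthase.

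The sequence under each CP190 summit is shown to let the Pita sites be seen beside the peaks. Each run covers 75 bp on either side of the Pita wt summit on the plus strand of dm6, and capitals mark matches to the 21-position Pita matrix on either strand at a p-value of 1e-04 or lower.
Atg8a (X:10768339-10768489): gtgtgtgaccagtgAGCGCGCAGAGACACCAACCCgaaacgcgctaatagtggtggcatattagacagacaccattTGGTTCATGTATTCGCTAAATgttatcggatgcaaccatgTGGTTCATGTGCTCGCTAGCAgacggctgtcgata
cib (X:4105880-4106030): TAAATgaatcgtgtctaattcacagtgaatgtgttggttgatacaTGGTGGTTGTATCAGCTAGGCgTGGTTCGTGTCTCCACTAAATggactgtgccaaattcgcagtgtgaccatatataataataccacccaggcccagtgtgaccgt
N (X:3134709-3134859): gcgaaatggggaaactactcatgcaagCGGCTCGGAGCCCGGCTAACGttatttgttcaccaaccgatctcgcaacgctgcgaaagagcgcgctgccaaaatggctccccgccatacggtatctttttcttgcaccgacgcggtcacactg
T48 (3R:26881465-26881615): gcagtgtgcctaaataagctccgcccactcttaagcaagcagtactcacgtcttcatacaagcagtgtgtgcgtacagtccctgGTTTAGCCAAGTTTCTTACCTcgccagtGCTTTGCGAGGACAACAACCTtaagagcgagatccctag
ATPsynC (3R:31219643-31219793): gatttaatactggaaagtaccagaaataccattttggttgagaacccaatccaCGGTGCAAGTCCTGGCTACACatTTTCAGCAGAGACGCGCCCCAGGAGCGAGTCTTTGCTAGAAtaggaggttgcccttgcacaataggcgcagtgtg
The capitals that open the cib run are the end of a match that begins outside it, and in ATPsynC 2 of the 3 matches overlap and form a single run of capitals.

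Within 250 bp of the summit, the matrix had 5 matches at Atg8a, 4 at cib, 3 at ATPsynC, 2 at T48 and 1 at N. The best site of each gene, written 5′ to 3′ on the strand of the matrix, shows how close each comes to the others.
Atg8a: ATTTAGCGAATACATGAACCA
cib: ATTTAGCAGAGACACGAACCA
cib, second site: ATTTAGTGGAGACACGAACCA
N: CGTTAGCCGGGCTCCGAGCCG
T48: GCTTTGCGAGGACAACAACCT
ATPsynC: GTGTAGCCAGGACTTGCACCG
The best cib site (X:4105864-4105884, minus strand) had the lowest p-value, 2.57e-10, and was centred 81 bp to the left of the summit. The second cib site (X:4105947-4105967, minus strand) was centred 2 bp from the summit, with a p-value of 7.54e-09. At Atg8a the best site (X:10768415-10768435, minus strand) had a p-value of 7.48e-08 and lay 11 bp from the summit. The best ATPsynC site (3R:31219696-31219716, minus strand, p-value 3.45e-07) was centred 12 bp to the left of the summit, and that of T48 (3R:26881577-26881597, plus strand, p-value 1.39e-06) 47 bp to its right. N had only a weak match (X:3134736-3134756, minus strand, p-value 2.34e-05), 38 bp to the left of its summit. These p-values describe how well a site scores against random bases and are not tests of binding.

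**Figure D1:**
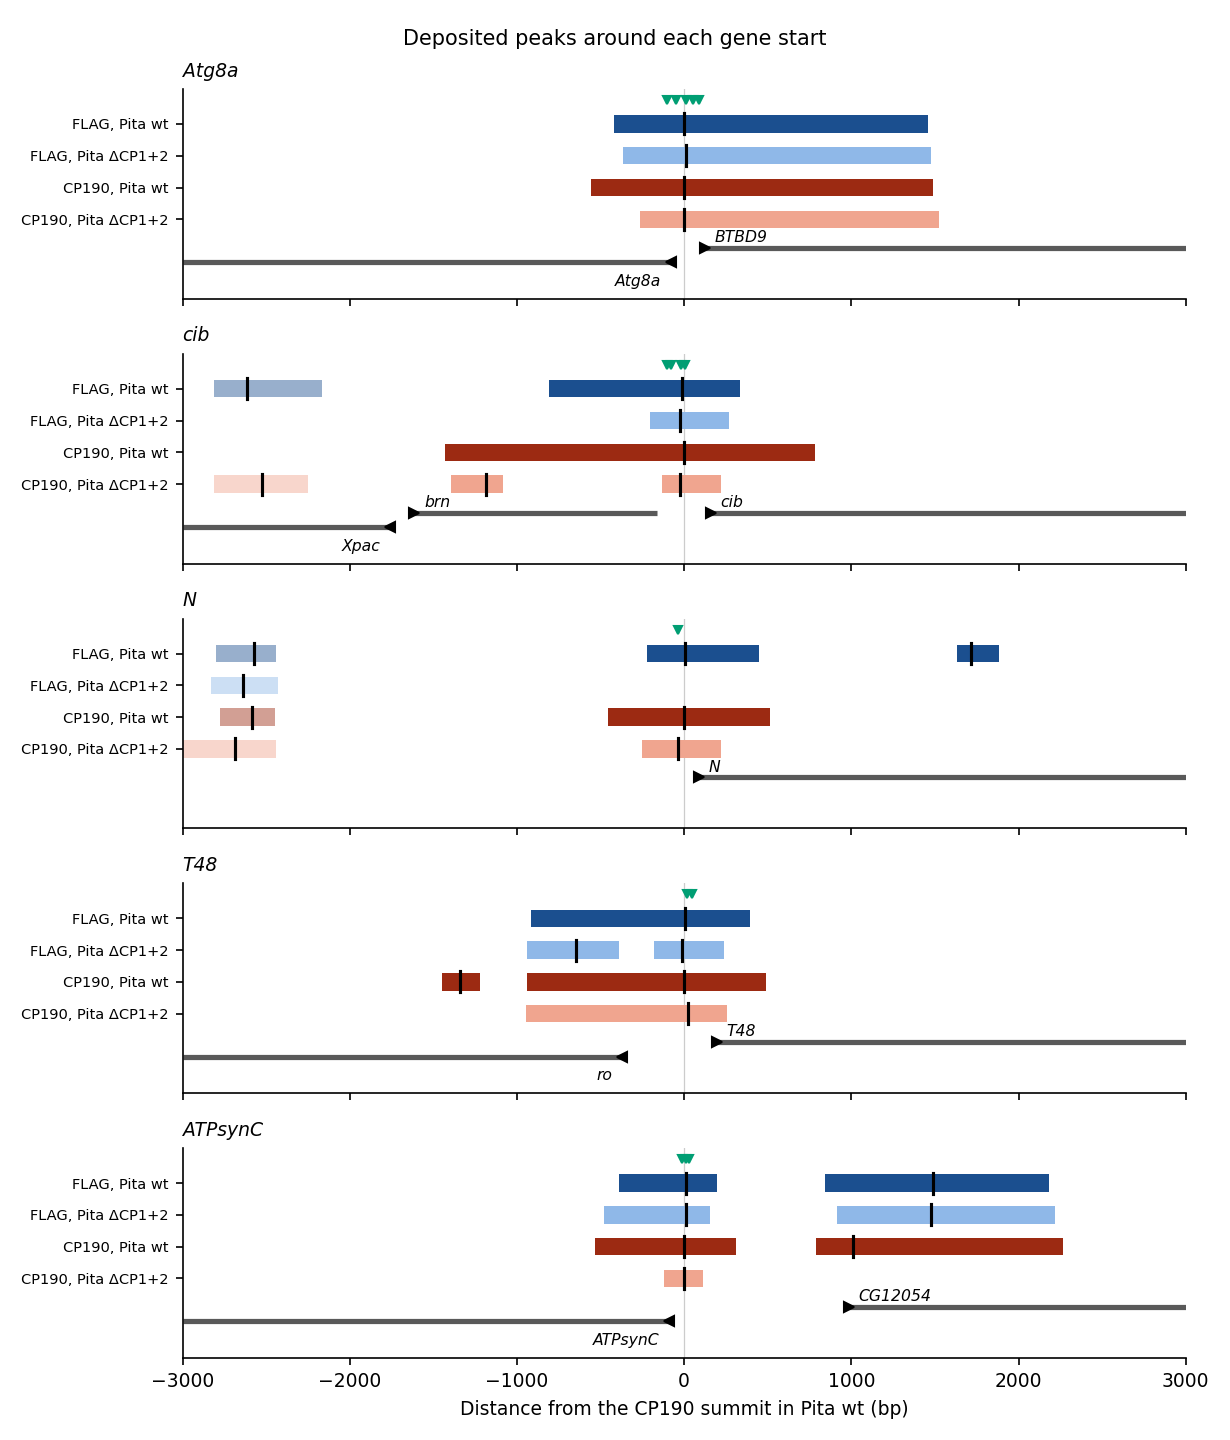
Deposited peaks of the 4 lists (bars) with their summits (black ticks) and Pita matrix matches at 1e-04 (green triangles), plotted by distance in bp from the CP190 summit in Pita wt; gene bodies are grey with an arrowhead at the start, and peaks beyond 2000 bp are paler. The bars at Atg8a keep nearly the same extent in all 4 lists, whereas FLAG has no peak at the N start in Pita ΔCP1+2.

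At Atg8a both proteins kept a place near the top of the lists in both lines. FLAG ranked 1 in Pita wt, with a fold enrichment of 12.4, and 3 in Pita ΔCP1+2, with 6.68. CP190 ranked 1 in Pita wt (49.4-fold) and 9 in Pita ΔCP1+2 (5.10-fold). Atg8a was thus the strongest site of both Pita wt lists and, by fold enrichment, the only one of the 5 starts among the first 10 of every list. By −log10 p-value it ranked 5 for FLAG and 15 for CP190 in the mutant lists, so that none of the 5 starts was among the first 10 of all 4. The fold enrichments are ratios over the preimmune sample, computed by the authors for each list, and values of separate lists are not on one scale.

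The peaks at Atg8a were also the ones that changed least in shape. The FLAG peak was 1876 bp wide in Pita wt (X:10767997-10769872) and 1844 bp in the mutant line (X:10768049-10769892). The CP190 peak was 2043 bp wide (X:10767857-10769899) against 1792 bp (X:10768148-10769939), or 87.7% of the Pita wt width. It lost 291 bp on the Atg8a side and gained 40 bp on the side of BTBD9, which encodes a BTB-domain protein and starts 123 bp from the summit in the other direction. The CP190 summit had the same coordinate in both lines. The FLAG summit moved by 8 bp.

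At cib, FLAG was among the first 5 peaks by fold enrichment in both lines and CP190 was not. FLAG ranked 3 in Pita wt (8.68-fold) and 4 in Pita ΔCP1+2 (5.82-fold). CP190 ranked 4 in Pita wt (27.6-fold) and 661 in Pita ΔCP1+2, where its fold enrichment was 2.70 beside a list median of 2.07. By the −log10 p-value in place of the fold enrichment, CP190 ranked 1620 in the mutant list and FLAG ranked 6 and 8.

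The CP190 peak at cib was the widest of all at these starts, 2216 bp in Pita wt (X:4104522-4106737), and 353 bp in the mutant line (X:4105825-4106177), 15.9% of that width. It lost 1303 bp on the left and 560 bp on the right. The left part had reached into brn, which encodes a glycosyltransferase and ends 5′ of cib. In the mutant CP190 list a separate weak peak, ranked 8303, remained there its summit being inside a coding exon of brn, 1185 bp from the Pita wt summit. The FLAG peak was 1141 bp wide in Pita wt (X:4105148-4106288) and 477 bp in the mutant line (X:4105749-4106225), with 601 bp of the difference on the brn side. Despite this narrowing the summits lay close together. They differed by 25 bp for CP190 and by 11 bp for FLAG, and in the mutant line those of FLAG and CP190 were 2 bp apart.

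ATPsynC showed the same contrast in a more extreme form. FLAG ranked 5 in Pita wt (7.58-fold) and 9 in Pita ΔCP1+2 (5.05-fold). CP190 ranked 9 in Pita wt (17.6-fold) and 5336 of 8429 in Pita ΔCP1+2, where its fold enrichment of 1.97 lay under the list median of 2.07. The −log10 p-values of the pair of peak sets that the IDR procedure compared were 435 and 398 for CP190 in Pita wt, against 6.31 and 5.47 in the mutant list. With the lists limited to their 5000 strongest peaks, ATPsynC had no CP190 peak in the mutant line.

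The widths at ATPsynC differed in direction between the antibodies. The CP190 peak was 847 bp in Pita wt (3R:31219184-31220030) and 234 bp in the mutant line (3R:31219598-31219831). The FLAG peak was 583 bp (3R:31219329-31219911) and 633 bp (3R:31219237-31219869), so that FLAG in the mutant line covered 109% of its Pita wt width while CP190 covered 27.6%. Summits barely differed. The FLAG summit had the same coordinate in both lines, and the CP190 summits were 1 bp apart.

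A second site lies at the start of CG12054 (FBgn0039831), 984 bp to the right of the ATPsynC summit, which is transcribed in the other direction. CP190 of Pita wt was enriched there at 3R:31220506-31221980 (rank 49, 8.51-fold), with its summit in the 5′ UTR of CG12054. No CP190 peak was listed there in Pita ΔCP1+2. FLAG had a peak at 3R:31220558-31221902 in Pita wt, with rank 49 and a fold enrichment of 4.24, and one at 3R:31220630-31221936 in the mutant line, with rank 4587 and a fold enrichment of 1.93. The FLAG and CP190 summits of Pita wt did not coincide there. That of FLAG (3R:31221204) lay 1486 bp and that of CP190 (3R:31220726) 1008 bp to the right of the ATPsynC summit. A matrix match with a p-value of 7.25e-08 (3R:31221188-31221208, minus strand) lay under the FLAG summit and not under that of CP190. The match is shown because it scores close to the best Atg8a site.
CG12054: GCTTAGCGGCGACTCCCACCC
The neighbouring peaks thus differed in FLAG. At ATPsynC it stayed in the first 10 of the mutant list, and at CG12054 its rank number was far larger.

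At T48 both antibodies had larger rank numbers in the mutant line. FLAG ranked 17 in Pita wt (5.66-fold) and 51 in Pita ΔCP1+2 (3.46-fold). CP190 ranked 8 (17.7-fold) and 449 (2.83-fold). Ordered by −log10 p-value, CP190 ranked 227 in the mutant list and FLAG ranked 10 in Pita wt. T48 faces ro, which encodes the homeodomain protein Rough and starts 369 bp to the left of the summit.

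The CP190 peak at T48 kept its extent although its rank number was larger. It was 1429 bp wide in Pita wt (3R:26880602-26882030) and 1201 bp in the mutant line (3R:26880596-26881796), 84.0% of the Pita wt width, with nearly the same left end. FLAG, by contrast, was a single peak of 1310 bp in Pita wt (3R:26880622-26881931) and was split in the mutant line. The stronger piece, 422 bp wide (3R:26881359-26881780), covered the matrix match near T48. The weaker piece (3R:26880598-26881152), ranked 6603, peaked within a coding exon of ro and shared the left end of the other peaks. The summits at T48 differed by 24 bp between the lines for CP190 and by 13 bp for FLAG, and the FLAG and CP190 summits of the mutant line were 34 bp apart, the largest such gap among the 4 starts that have both. A weak CP190 peak of Pita wt, ranked 4123, lay 1343 bp to the left in a coding exon of CG5500.

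N was the reverse of cib and ATPsynC. CP190 ranked 10 in Pita wt (17.04-fold) and 17 in Pita ΔCP1+2 (4.18-fold), the second-best CP190 rank of the 5 starts in the mutant list. FLAG ranked 93 in Pita wt (3.70-fold), the lowest FLAG place of the 5, and no FLAG peak was listed within 2000 bp in Pita ΔCP1+2. By −log10 p-value, CP190 ranked 31 in the mutant line. A peak missing from a list says that it did not pass the authors' thresholds, and the FLAG signal below them was not analysed here.

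The CP190 peak at N was 968 bp wide in Pita wt (X:3134331-3135298) and 476 bp in the mutant line (X:3134531-3135006). It lost 200 bp on the left, towards the end of kirre, an immunoglobulin-family gene of myoblast fusion, and 292 bp on the side of N. The CP190 summits were 39 bp apart, more than at the other 4 starts. In the mutant line the summit at X:3134745 fell inside the single matrix match. The FLAG peak of Pita wt was 668 bp wide (X:3134563-3135230), and its summit lay 2 bp from that of CP190.

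Around N there were further peaks that the distance limit splits. Just inside it, FLAG of Pita wt had a peak in an intron of N, 1714 bp to the right and ranked 1814. Just outside it, all 4 lists had a peak in a coding exon of kirre. FLAG lay 2575 bp to the left with rank 3772 in Pita wt, and 2641 bp to the left with rank 389 in Pita ΔCP1+2. CP190 ranked 2962 there in Pita wt and 686 in Pita ΔCP1+2. With a limit of 5000 bp these peaks would count as FLAG at N in both lines. At cib, weak peaks in a coding exon of Xpac, which encodes a DNA repair protein, lay outside the limit as well, with rank 6572 for FLAG in Pita wt and rank 7736 for CP190 in Pita ΔCP1+2.

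**Figure D2:**
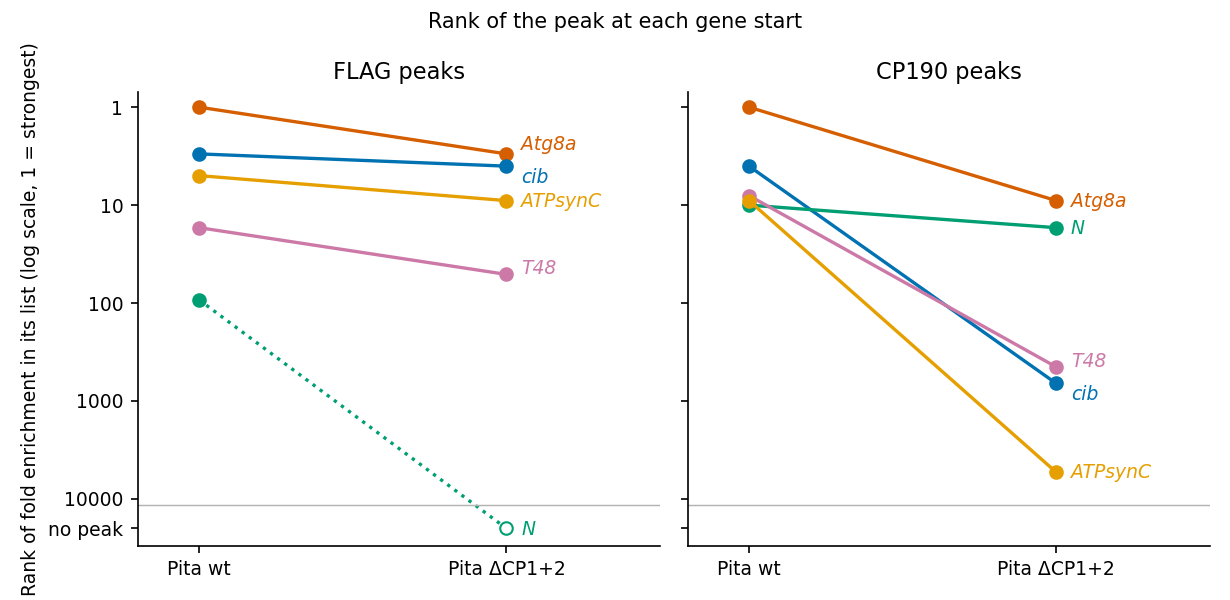
Rank of the strongest peak at each gene start within its list (vertical log axis, 1 at the top) for FLAG and CP190 in both lines, with 1 line per gene and an open circle where no peak was listed within 2000 bp. CP190 at N and Atg8a stays within the first 20 while cib, T48 and ATPsynC reach 661, 449 and 5336, and FLAG at N has no peak in Pita ΔCP1+2.

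Over the 5 starts, CP190 had a peak in both lines at all 5, and FLAG at 4. Among all CP190 peaks of Pita wt, 84.2% had a mutant CP190 summit within 2000 bp, and among all FLAG peaks of Pita wt 80.9% had a mutant FLAG summit, so that presence in both lines was common in these lists. The rank number of CP190 was larger in the mutant list at 5 of 5 starts, with a median of 449, and that of FLAG at 4 of 4. Sites taken from the very top of a list have little room to rank higher elsewhere. Of the other peaks among the 100 strongest CP190 peaks of Pita wt, 53 had a mutant CP190 summit within 2000 bp. Of these 53, 81.1% also had a larger rank number in the mutant list. The mutant summit lay a median of 67 bp away, and 1888 bp away at 1 peak, so it was not always the same site. For FLAG, the other 94 strong peaks had a median rank of 89 in Pita wt and 1036.5 in the mutant list, over those with a peak in each. Larger FLAG rank numbers in the mutant list were thus not particular to the 5 starts. The ratio of CP190 ranks, mutant to Pita wt, was 1.7 at N, 9 at Atg8a, 56.1 at T48, 165 at cib and 593 at ATPsynC. The same ratio for FLAG was between 1.33 and 3 at the 4 starts that had it.

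The upper end of the CP190 list differed between the lines as a whole. Its highest fold enrichment was 49.4 in Pita wt and 12.8 in Pita ΔCP1+2, the values at rank 10 were 17.04 and 5.03, and those at rank 100 were 4.77 and 3.37, whereas both medians were 2.07. For FLAG the highest values were 12.4 and 11.5. Fold enrichment of CP190 at the 5 starts was 4.08 (N), 6.27 (T48), 8.91 (ATPsynC), 9.68 (Atg8a) and 10.2 (cib) times as high in the Pita wt list as in the mutant list. For FLAG these ratios were between 1.49 and 1.85. At Atg8a the fold enrichments of CP190 thus stood nearly as far apart as at cib, while the ranks stayed close. Whether such ratios reflect less CP190 at a site or a library with less enrichment cannot be told apart from these lists.

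**Figure D3:**
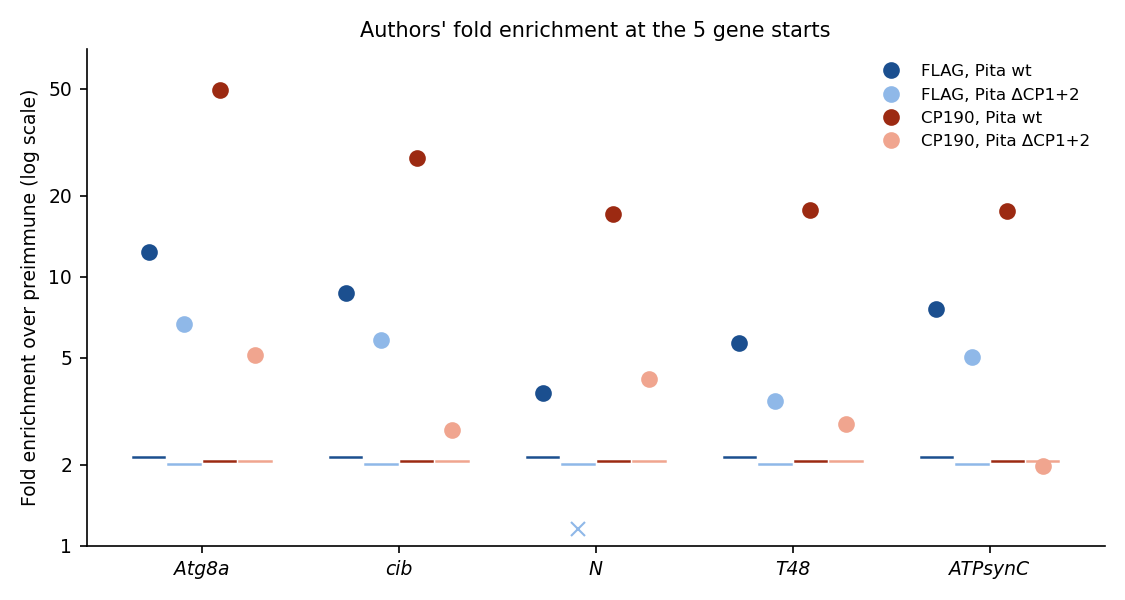
Fold enrichment over the preimmune sample (log axis) of the strongest peak at each gene start in the 4 lists, with short bars at the median of each list and a cross where no FLAG peak was listed. CP190 in Pita ΔCP1+2 lies between 1.97 at ATPsynC and 5.10 at Atg8a, and all values of Pita wt lie above the median of their list.

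The −log10 p-values of the pair of peak sets that went into each IDR comparison were of similar size at each start, least so for FLAG at T48 in the mutant list. For CP190 in Pita wt they were 1211 and 1134 at Atg8a, 528 and 498 at cib, 367 and 372 at N, and 425 and 414 at T48. In the mutant list they were 37.7 and 36.8 at Atg8a, 10.3 and 9.35 at cib, 27.2 and 26.0 at N, and 15.5 and 18.8 at T48. The gap between the lines was thus larger than the gap between the sets within a list at each gene, in the CP190 lists. The starts were chosen by their strong CP190 peaks in Pita wt, so this gap partly follows from the choice and is no separate finding. For FLAG the pairs were 154 and 170 against 66.1 and 62.0 at Atg8a, 90.2 and 81.5 against 50.2 and 42.2 at cib, 65.4 and 62.2 against 22.6 and 16.4 at T48, and 101 and 83.7 against 45.3 and 36.9 at ATPsynC. Which sets the procedure compared, replicates or subsets of pooled reads, is not known here, so these pairs are no measure of the replicate error. They also grow with sequencing depth.

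Summits hardly differed between the lines. The median distance between the CP190 summits of the lines was 24 bp over 5 starts, with a maximum of 39 bp, and that of FLAG was 9.5 bp over 4 starts, with a maximum of 13 bp. Summits of the compared peak sets within a list lay a median of 21.5 bp and at most 56 bp apart for CP190, and a median of 12 bp and at most 40 bp apart for FLAG. The distances between the lines were thus of the size of those within a list. The origin of these sets is not known here, so the distances within a list are no measure of the replicate error. In Pita wt the summits of FLAG and CP190 differed by 0 bp at Atg8a, 2 bp at N, 3 bp at T48, 11 bp at ATPsynC and 12 bp at cib.

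Widths differed more than summits. The CP190 peak was narrower in the mutant line at all 5 starts, with a median of 476 bp against 1429 bp, and the share of the Pita wt width was 15.9% at cib, 27.6% at ATPsynC, 49.2% at N, 84.0% at T48 and 87.7% at Atg8a. FLAG was narrower at 3 of 4 starts, with a median of 555 bp over those 4 against 1141 bp over 5 in Pita wt. Median widths of the whole CP190 lists were 538 bp in Pita wt and 547 bp in Pita ΔCP1+2. Strong peaks are wider in these lists, with a median of 865 bp over the 100 strongest CP190 peaks of Pita wt. The other 53 peaks of that set with a mutant summit within 2000 bp, not always at the same site, had a median width of 426 bp in the mutant list. In Pita wt the other 94 had a median of 832.5 bp, so narrower CP190 peaks in the mutant list were not particular to the 5 starts. FLAG widths at the other strong peaks were not compared. T48 went against the link between rank and width. Its CP190 peak in the mutant line ranked 449 and was 1201 bp wide, while that of N ranked 17 and was 476 bp wide.

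**Figure D4:**
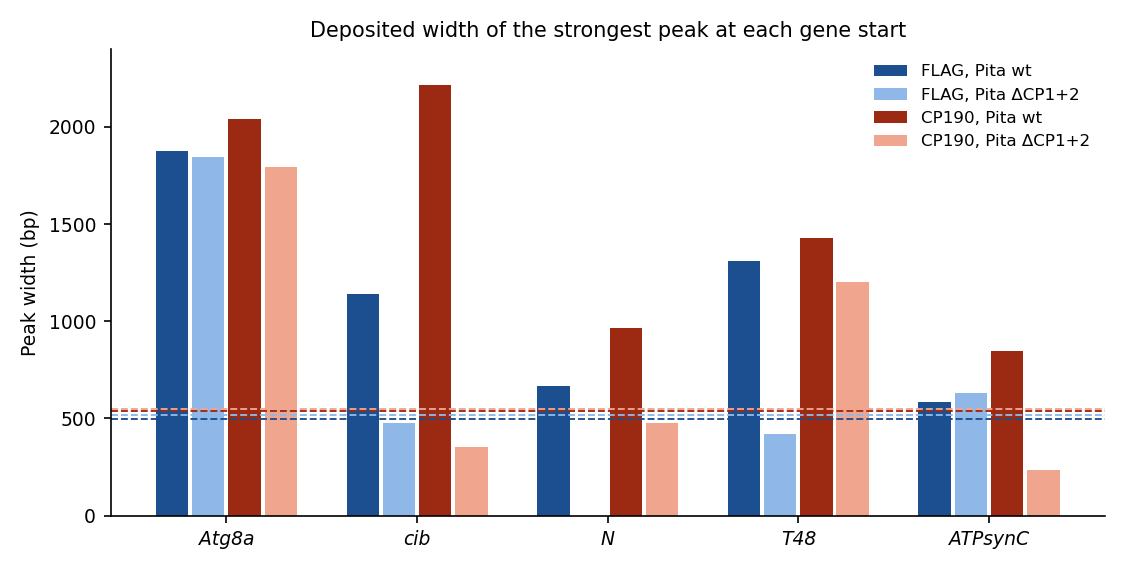
Width in bp of the strongest peak at each gene start in the 4 lists, with dashed lines at the median width of each list; N has no bar for FLAG in Pita ΔCP1+2. CP190 bars of Pita ΔCP1+2 are close to those of Pita wt at Atg8a and T48 and far shorter at cib and ATPsynC.

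To see whether these patterns were shared by other strong sites, the 5 starts were set beside the other 94 of the 100 strongest CP190 peaks of Pita wt, after leaving out the peak at CG12054. Of those 94, 56.4% had a CP190 peak and 63.8% a FLAG peak in the mutant lists, and 88.3% had a FLAG peak in Pita wt, where the 5 starts had 5, 4 and 5. Any summit within 2000 bp counted, so the shares of the 94 include neighbouring peaks. At the 5 starts the CP190 summits of the lines were at most 39 bp apart. FLAG ranked within the first 10 of the mutant list at 3 of the 5 starts and at 1 of the 94. The combination seen at cib and ATPsynC, FLAG within the first 10 and CP190 past rank 400 or absent in the mutant line, occurred at 1 of the 94. These limits were chosen with the values of cib and ATPsynC known, and other strong peaks fell just outside them. The peak ranked 3 for CP190 in Pita wt had mutant ranks of 11 for FLAG and 205 for CP190. The peak ranked 19 had a mutant FLAG rank of 37 and no mutant CP190 peak. The combination of N, CP190 within the first 20 without a FLAG peak, occurred at 2 of the 94. Strong peaks with CP190 within the first 20 and FLAG far down the mutant list were also found. Those ranked 12 and 15 for CP190 in Pita wt had mutant CP190 ranks of 12 and 10 and mutant FLAG ranks of 1749 and 1853.

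The 10 peaks nearest in CP190 rank, those that fill the first 15 places of the Pita wt list, give the closest comparison. Of these, 8 had a CP190 peak in the mutant line, with a median rank of 13.5 and a range from 1 to 3669, against a median of 449 at the 5 starts. The mutant peak with rank 3669 had its summit 1414 bp from that of Pita wt. In the mutant FLAG list, 8 of the 10 had a peak, with a median rank of 368.5 and none within the first 10. In Pita wt the FLAG rank had a median of 35 at these 10 peaks and of 5 at the 5 starts. It was within the first 20 at 3 of the 10 and 4 of the 5. Within the first 100 it was at 9 of the 10 and 5 of the 5. CP190 was within the first 20 of the mutant list at 5 of these 10 peaks, and at Atg8a and N among the 5 starts. The groups are small and the starts were picked with these lists known, so no test of the difference was run.

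**Figure D5:**
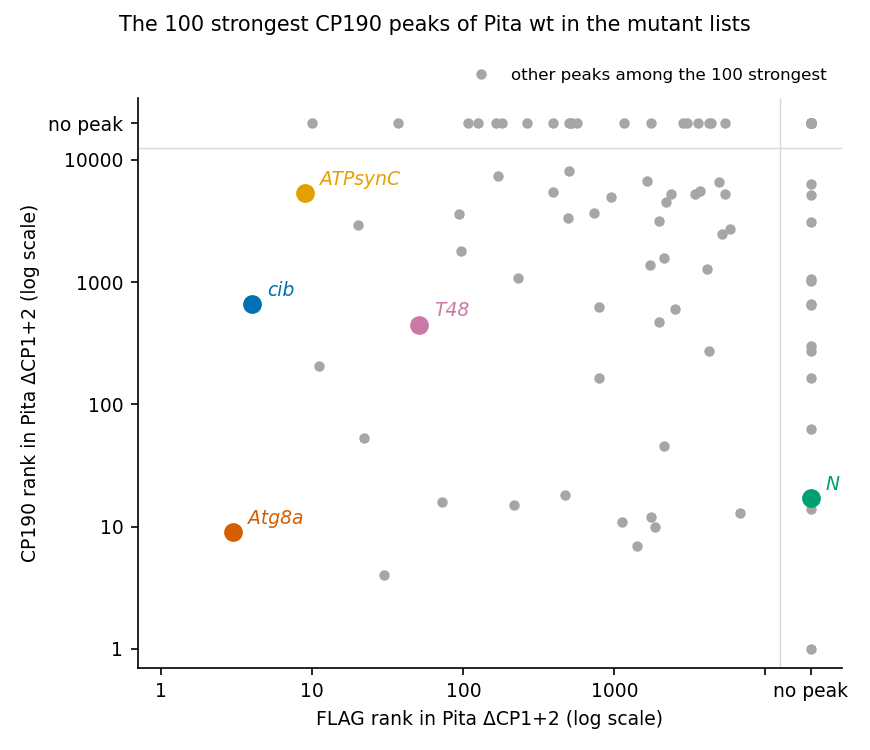
Rank in the FLAG list (horizontal) and in the CP190 list (vertical) of Pita ΔCP1+2, both on log axes with 1 as the strongest, for the 5 gene starts (coloured) and the other 94 of the 100 strongest CP190 peaks of Pita wt (grey), with sites without a peak on the outer lines. The starts of cib and ATPsynC lie at the upper left, Atg8a at the lower left and N at the lower right.

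The 5 starts share the position of their summit, which partly follows from how they were named. All 5 CP190 summits lay within 200 bp of the start of a protein-coding gene, as did 5.31% of the 6568 CP190 summits of Pita wt on the assembled chromosomes and 45 of the other 94 strong peaks. Of the 10 peaks nearest in rank, 3 lay as close to a start. Divergent genes flanked 3 of the 5 summits: Atg8a with BTBD9, T48 with ro, and ATPsynC with CG12054. A minus-strand start as the nearest on the left and a plus-strand start as the nearest on the right, both within 2000 bp, was found at 1.55% of all CP190 summits, at 18 of the other 94 strong peaks and at 1 of the 10 peaks nearest in rank. The microRNA gene mir-4949 lies inside the transcribed region of ATPsynC, 346 bp from the summit.

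Pita matrix matches were frequent at strong CP190 peaks in general. At 1e-04, a match within 250 bp was found at 5 of 5 starts, at 74.5% of the other 94 strong peaks, at 13.8% of all CP190 peaks and 11.9% of all FLAG peaks of Pita wt, and in 7.60% of windows of the same length at protein-coding gene starts. At 1e-06, Atg8a, cib and ATPsynC had a match, as did 34.0% of the other 94, 2.04% of all CP190 peaks and 1.40% of gene starts. The median number of matches that do not overlap was 2 among the 94 and the maximum was 5, the number found at Atg8a. N, with the weakest match, was the start where FLAG was missing from the mutant list. The ratio of FLAG ranks, mutant to Pita wt, was 1.33 at cib, 1.8 at ATPsynC and 3 at Atg8a, which have a match at 1e-06. It was 3 at T48, which has none. Whether the ratio follows the strength of the match was not tested. Among the 94, 27 of 32 peaks with a match at 1e-06 had FLAG within 2000 bp in the mutant list, whether or not Pita wt had it, against 21 of 38 with a weaker match and 12 of 24 with none. For CP190, counted within the same distance and so not always at the same site, the numbers were 20 of 32, 14 of 38 and 19 of 24. A place among the first 100 of the mutant CP190 list was held by 2 of the 32, 3 of the 38 and 9 of the 24.

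Other short words were searched on both strands of the same windows. The word CGATA, the core bound by BEAF-32, was present at Atg8a, cib and ATPsynC, and in 40.1% of CP190 peaks, 62.8% of the other 94 and 59.9% of gene starts. TATCGAT, most of the element bound by DREF, whose last letters overlap CGATA, was present at Atg8a, and in 4.70%, 24.5% and 20.3% of the same windows. GTCACAC, part of the Motif 1 element of Drosophila promoters that M1BP binds, was present at Atg8a, cib, N and ATPsynC but not T48, beside 4.87% of CP190 peaks, 20.2% of the other 94 and 11.2% of gene starts. Neither GAGAG, the core of GAF sites, nor GCATACT, part of the Su(Hw) site, was found at any of the 5, whereas GAGAG was present in 47.5% of CP190 peaks, 35.1% of the other 94 and 43.8% of gene starts, and GCATACT in 3.35%, 7.45% and 3.49%. A match is a description of the letters in the window. The GC content of the 5 windows was between 44.1% and 46.7%, under the median of 56.5% for all CP190 peaks and above that of 40.5% for the other 94.

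Genes that work with the 5 products were looked up as well, by the strongest peak within 2000 bp of each annotated start. Over 13968 protein-coding genes on the assembled chromosomes, FLAG was found at 29.3% in Pita wt and at 31.1% in Pita ΔCP1+2, and CP190 at 29.7% and 36.1%. Of 21 other autophagy genes, CP190 was found at 7 in each line and FLAG at 6 in Pita wt and 7 in Pita ΔCP1+2. The best CP190 rank in Pita wt was 1389 at Pi3K59F, the catalytic subunit of the lipid kinase that starts autophagosomes, followed by 1986 at Atg101, of the Atg1 kinase complex. In the mutant list these genes had ranks of 400 and 2368. None came near Atg8a.

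Of 11 other genes of actin monomer binding and turnover, CP190 was found at 5 in Pita wt and at 3 in Pita ΔCP1+2, and FLAG at 3 in each line. The highest places were 214 at the actin gene Act42A and 550 at capt, a cyclase-associated protein, with mutant ranks of 3781 and 373. Of 18 Notch pathway genes, CP190 was found at 5 and 7 and FLAG at 6 in each line, led by dx, which encodes the Deltex regulator of Notch (rank 113, and 488 in the mutant list), and Su(H), the transcription factor of the pathway (447 and 2579). Among 15 genes of apical constriction and gastrulation, FLAG was found at 8 and 6 and CP190 at 5 and 7. Here zip, the heavy chain of non-muscle myosin, ranked 148 for CP190 in Pita wt and had no peak in the mutant list, and cno, the junction protein Canoe, ranked 170 and 1179.

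The ATP synthase list was the fullest. Of 13 other subunit genes, CP190 was found at 9 in Pita wt and 8 in Pita ΔCP1+2, and FLAG at 7 and 8, each a larger share than over all genes, which was not tested. The strongest was ATPsynD, a subunit of the stalk, with rank 154 and no CP190 peak in the mutant line, followed by ATPsynCF6 with ranks of 875 and 2337. No gene of the 5 lists had a CP190 peak in Pita wt as strong as those of Atg8a, cib, N, T48 and ATPsynC, as the choice of these genes implies.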

How the data were processed

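FLAG and CP190 ChIP-seq of both lines was analysed from 4 peak lists with 20 columns each, of which 0 belonged to another series. Per the methods, the authors trimmed the reads with cutadapt, aligned them to dm6 with Bowtie version 2, removed duplicates with Picard, used MACS2 with the preimmune sample as control, removed blacklisted regions and kept the optimal set of the IDR procedure, which merges the replicates. In the supplement, the self-consistency ratio, a measure of how alike the replicates are, was above the limit named in the methods for both Pita wt lists. It was below that limit for both mutant lists. The labels describe single-end and the methods paired-end sequencing. The fold enrichment (a ratio), −log10 p-value and score of each peak are deposited values of the authors. The score only repeats the IDR and was not used for ranks.

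Peaks were ranked by fold enrichment within each list, and the highest within 2000 bp of the given summit stood for a gene start. Windows of 501 bp around summits were scanned with the Pita matrix of the supplement, with exact p-values under equal base frequencies. The scanner was tested on simulated data. Positions were counted from 1. Genes came from Ensembl release 115 and sequence from the RefSeq copy of the same assembly. The named genes are the 5 starts, genes with a start within 2000 bp of their summits or that hold a summit there, and, of each list of related genes, those with the 2 strongest CP190 peaks in Pita wt. Members and lists were chosen with earlier results of these data known. Distances, list thresholds, overlap, ranking measure, summit choice, motif threshold and motif window were varied. Depth and replicate error were not analysed here. Python 3.11.15, numpy 2.4.6, pandas 2.3.3 and matplotlib 3.10.9 were used.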

Additional observations from a re-analysis of the deposited data

How the results depend on the processing

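The counts of starts with CP190 in both lines (5) and FLAG in both lines (4) and of larger rank numbers in the mutant lists (5 and 4) moved little. CP190 in both lines was 4 with the 5000 or the 3000 strongest peaks of each list, and FLAG was 5 with a distance of 5000 bp. A Pita match was found at 4 starts at 1e-05. Ordered by −log10 p-value, 11 of 19 ranks stayed within 1.5 times, and with the nearest summit all 38 ranks and widths were the same. When midpoints of the deposited boundaries replaced summits, the median distance between the lines became 120 bp for CP190 and 168 bp for FLAG, because the ends of the peaks differ between the lines. Leaving out a replicate was not possible, since the lists pool the replicates. No paired analysis was possible because no value of the lists can be assigned to a replicate, the origin of the pair of sets compared by IDR being unknown here.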
